A study of Drosophila melanogaster with 4 samples.

Results

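U is the sequence of the Drosophila melanogaster release 5 assembly that holds scaffolds not placed on any chromosome. Its members here are the regions enriched for histone H3 trimethylated at lysine 9 (H3K9me3) that the authors listed on U, called clusters. They were chosen by sequence name alone. The series-wide list held 964 clusters on U out of 3941 in all, replicate 1 held 1110 of 3395 and replicate 2 held 1132 of 3404. U is 10.0 Mb long and makes up 7.19% of the 13 sequences with clusters.

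H3K9me3 was mapped by chromatin immunoprecipitation and sequencing in 2 ChIP libraries of wild-type Oregon-R embryos aged 14 to 16 h, each with its own input library. The embryos were whole, crosslinked with formaldehyde and raised from population cages, so all cell types were pooled. There is 1 cluster list for each ChIP library and 1 list for the set of replicates, which is no independent sample. Values of the 2 inputs were not analysed here, and the number of reads behind the lists is unknown. With a single genotype and stage, the comparisons are between the libraries, along U, and between U and other sequences.

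H3K9me3 is the mark of constitutive heterochromatin. Histone methyltransferases deposit it, the chromodomain protein HP1a binds it, and in flies it lies mainly over pericentric satellites and transposable elements. Scaffolds end up in U because repeats hinder their placement, and U joins them in an order that is not a chromosomal order. Clusters that lie side by side on U therefore need not be neighbours on a chromosome. The label calls U repeat-rich, which was not measured here, since no release 5 sequence was used. For the same reason no gene on U is named. How reads that fit several places were counted is not given in the sources used here, and that choice bears on repeated sequence in particular.

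H3K9me3 clusters covered most of U, in many pieces of a few kb each. The series-wide list covered 76.0% of its bases, replicate 1 covered 65.4% and replicate 2 covered 63.4%, which gives 64.4% ± 1.44 over the libraries (SD, n = 2). U held 24.5% of all clusters in the series-wide list, 32.7% in replicate 1 and 33.3% in replicate 2. Both libraries covered the same 59.4% of U, and at least 1 of them covered 69.4%. Coverage began close to the first base of U and ran almost to its end: the first cluster started at 3456 in the series-wide list, at 4841 in replicate 1 and at 7849 in replicate 2, and the last ended at 10048568, 10046701 and 10044088.

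Most clusters on U were short, while a few long ones held much of the covered sequence. Lengths in the series-wide list ran from 1001 to 88413 bp with a median of 4947 bp. Those of replicate 1 ran from 1305 to 78126 bp with a median of 3806.5 bp, and those of replicate 2 from 1301 to 78208 bp with a median of 3632 bp. Clusters of at least 10 kb made up 22.2% of the series-wide list, 13.0% of replicate 1 and 12.3% of replicate 2. They nevertheless held 57.2%, 42.1% and 40.2% of the covered bases in the same order of lists. Clusters of at least 40 kb numbered 19 in the series-wide list, 9 in replicate 1 and 6 in replicate 2. At the short end some lengths fell on steps. Exactly 1001 bp long were 15 of the 964 series-wide clusters on U, beside 69 of 3941 over all sequences. Exactly 2001 bp long were 15 of 1110 on U in replicate 1 and 17 of 1132 in replicate 2. Over all sequences these were 28 of 3395 and 33 of 3404. No library cluster on U was shorter than 1301 bp.

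The 5 longest series-wide clusters on U were long in at least 1 library as well. The longest, chrU:341951-430363 (88413 bp), was covered to 98.1% in replicate 1 and 99.1% in replicate 2, where the longest overlapping clusters were 78126 and 78208 bp. The second, chrU:563817-640326 (76510 bp), matched a single cluster in each library, of 76457 bp in replicate 1 and 76455 bp in replicate 2. Both libraries started that cluster at 563839 and ended it within a few bases, at 640295 and 640293. The third, chrU:6019867-6090985 (71119 bp), was cut into 9 clusters in replicate 1 and 5 in replicate 2, which still covered 95.4% and 90.7% of it. The fourth, chrU:1178583-1242054 (63472 bp), was 1 cluster in replicate 1 and 3 in replicate 2. The fifth, chrU:5737815-5797761 (59947 bp), was likewise 1 cluster in replicate 1 and 3 in replicate 2. Library coverage of these last 2 lay between 96.3% and 100%. The number of pieces differed between the libraries in the third to the fifth of these clusters and was the same in the longest and the second.

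The authors' score ranked clusters on U high within each list. Of the clusters on U, 27.8% of the series-wide list (268 of 964), 24.3% of replicate 1 (270 of 1110) and 23.6% of replicate 2 (267 of 1132) had a score among the highest 10% of their list. Over all sequences that share is 10.0% in each list by construction. The exact 95% intervals for U were 25.0 to 30.7%, 21.8 to 27.0% and 21.1 to 26.2%. Seen from the top, 67.8% of the highest-scoring series-wide clusters, 79.4% of those of replicate 1 and 78.3% of those of replicate 2 lay on U. The median cluster of U stood at percentile 79.9 of the series-wide scores, 75.6 of replicate 1 and 75.0 of replicate 2. Low scores occurred on U too: the lowest were 0.50, 0.71 and 0.69, against medians of 2.64, 2.78 and 2.75 and maxima of 5.56, 5.79 and 5.31.

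The highest single scores on U belonged to short clusters, and scores of long clusters spread less. Scores among the highest 10% of the list were not a trait of short clusters as a class. Their share was 11.9%, 26.9%, 34.0%, 30.7% and 25.9% in the series-wide classes of under 2, 2 to 4, 4 to 8, 8 to 16 and at least 16 kb. It was 17.0%, 30.3%, 24.0%, 19.4% and 12.3% in replicate 1, and 11.7%, 25.5%, 28.2%, 21.6% and 18.0% in replicate 2. Clusters of 2 to 4 kb contained the maximum of every list. In replicate 1 the scores of these 439 clusters ran from 1.77 at the 10th percentile to 3.84 at the 90th, with a median of 2.84. The 65 clusters of at least 16 kb in replicate 1 had a median of 2.86 and the narrower span of 2.36 to 3.38. In replicate 2 the span was 1.76 to 3.81 for 487 clusters of 2 to 4 kb and 2.15 to 3.33 for 61 clusters of at least 16 kb. Clusters under 2 kb had the lowest medians, at 2.13 in the series-wide list, 2.27 in replicate 1 and 2.19 in replicate 2. The longest cluster ranked 360th of 964 by score and the second longest 355th. Over all clusters of U, Spearman's rho between length and score was 0.25 in the series-wide list, 0.14 in replicate 1 and 0.19 in replicate 2, a weak relation across clusters that share a library. The scatter of score against length shows the same funnel in the 3 lists.

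**Figure D1:**
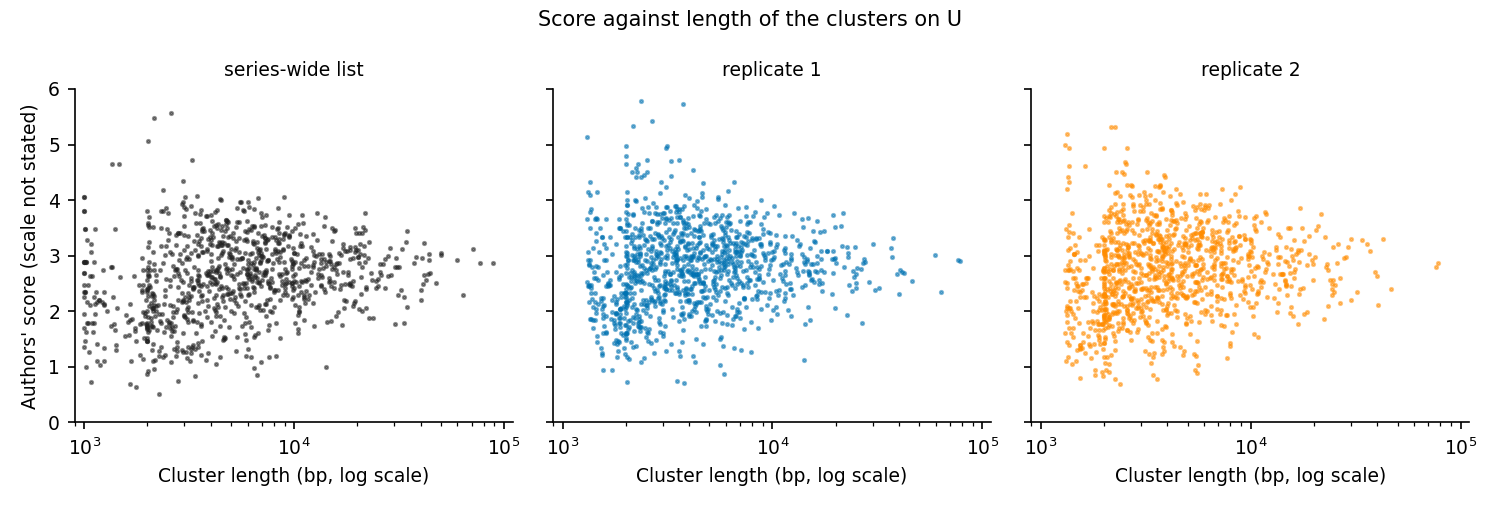
Authors' score (vertical axis, scale not stated) against cluster length in bp (horizontal axis, log scale) for the clusters on U, 1 point a cluster, in the series-wide list (964), replicate 1 (1110) and replicate 2 (1132). Scores above 5 belong to clusters of 1312 to 3733 bp, and the spread narrows towards long clusters.

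Of the 5 highest series-wide scores, 3 were at places that neither library listed, while the 5 highest of each library were mostly at shared places. This did not hold further down the series-wide list. Of its 268 highest-scoring clusters on U, as counted above, 21 overlapped no library cluster. Such high-scoring clusters made up 18.3% of the series-wide clusters on U found in neither library and 29.1% of the others. The top series-wide cluster, chrU:3802575-3805159 (2585 bp, score 5.56), overlapped no cluster of either library. The second, chrU:9456539-9458691 (2153 bp, score 5.47), overlapped none of replicate 1 and a 1359 bp cluster of replicate 2 with a score of 4.93, the seventh highest there. The third, chrU:663526-665534 (2009 bp, score 5.06), and the fifth, chrU:7242166-7243635 (1470 bp, score 4.64), again overlapped no library cluster. Only the fourth of the 5, chrU:2183156-2186404 (3249 bp, score 4.72), was found in both libraries. It ranked 3rd of 1110 in replicate 1 (2663 bp, score 5.42) and 9th of 1132 in replicate 2 (2553 bp, score 4.66). Of these 5 places, 3 were thus listed in neither library. In contrast, all 5 highest clusters of replicate 1 and 4 of the 5 highest of replicate 2 overlapped the other library, and all of them overlapped the series-wide list. The highest of replicate 1, chrU:6300155-6302528 (score 5.79), overlapped the 55th of replicate 2 and the 88th of the series-wide list. The highest of replicate 2, chrU:8254992-8257235 (score 5.31), overlapped the 15th of replicate 1 and the 190th of the series-wide list.

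Scores on U also took repeated values. An identical score in another cluster of the same list was found for 22.1% of the series-wide clusters on U, 40.1% of those of replicate 1 and 36.3% of those of replicate 2. On the 6 scaffolds that release 5 assigns to the heterochromatin of chromosomes 2, 3, X and Y, these shares were 18.0%, 15.7% and 13.9%, and over all sequences 23.0%, 30.3% and 26.5%. The share on U was thus above that of all sequences in the libraries and not in the series-wide list. Clusters on U with a repeated score were short, with a median of 2037 bp against 6240 bp for the others in the series-wide list, 2376 against 5298 bp in replicate 1 and 2354 against 4731 bp in replicate 2. Over the whole of replicate 1 the most frequent decimal part recurred at levels 1 apart, with 14 clusters at 1.33, 20 at 2.33 and 16 at 3.33, and in replicate 2 with 13 at 1.61, 22 at 2.61 and 13 at 3.61. A constant was set from each list's own scores, as 2 raised to its most frequent decimal part. It was 1.39 series-wide, 1.26 in replicate 1 and 1.52 in replicate 2. Then 2 was raised to the score and divided by this constant. Of the 10 highest values on U, 7, 9 and 9 were whole numbers within 0.001. Those of replicate 1 began with 44, 42, 34, 32 and 28, and those of replicate 2 with 26, 26, 24, 21 and 20. Of the 50 highest it held for 15, 29 and 18, and of all clusters on U for 55 of 964, 122 of 1110 and 90 of 1132. Over all sequences it held for 132 of 3941, 154 of 3395 and 127 of 3404 clusters. Of these, 65, 55 and 66 lay at the levels that set the constant, where a whole number follows by construction. Their part in the shares on U and on the scaffolds was not counted. On the 6 scaffolds it held for 26 of 484, 14 of 528 and 9 of 570. The share on U was above both in each list, though in the series-wide list it was 5.71% against 5.37% on the scaffolds. Most of the 10 highest values on U thus have the form of a base-2 logarithm of a whole multiple of this constant. The constant came from the same scores, so this is a description of them. Which quantities enter the score is not given in the sources used here.

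Gaps between the clusters of U varied widely around a median of 1 to 2 kb. The median gap was 1262 bp in the series-wide list, 1680 bp in replicate 1 and 1812 bp in replicate 2, or 1746 bp ± 93.3 over the libraries (SD, n = 2). Gaps under 1 kb made up 42.4%, 35.9% and 34.6% of all gaps, and the smallest were 0, 5 and 1 bp. The middle 50% of gaps ran from 435 to 3367 bp in the series-wide list, from 604 to 4411 bp in replicate 1 and from 656 to 4539 bp in replicate 2. Neighbouring clusters were only loosely alike: Spearman's rho between the score of a cluster and that of the next was 0.18, 0.10 and 0.16, and between their lengths 0.10, 0.16 and 0.15, in the same order of lists.

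What stayed uncovered on U was spread over many stretches, most of them short, with 1 far longer than the rest. In none of the 3 lists were 956 stretches covered, amounting to 2.39 Mb or 23.8% of U, with a median of 1263 bp. Of these, 156 reached 5 kb and held 54.9% of the uncovered bases, and 21 reached 10 kb and held 16.8%. Stretches of at least 10 kb numbered 21 in the series-wide list and 46 in each library, where they held 16.7%, 22.0% and 22.3% of the uncovered bases.

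The largest uncovered stretch, chrU:695773-816290, was 120518 bp long, against 20350 bp for the next. The gap around it was 122840 bp in replicate 1 and 122377 bp in replicate 2. The cluster on its left ended at 695772 in the series-wide list, at 695700 in replicate 1 and at 695721 in replicate 2, close together. The cluster on its right began at 816291, 818541 and 818099, so there the series-wide list started over 1 kb before the libraries. The left neighbour was 30107 bp long in the series-wide list and only 2917 and 2676 bp in the libraries, and the right neighbour 18480, 14848 and 9764 bp. Of 100 windows of 100 kb along U, the window from 0.7 to 0.8 Mb was the only one with 0% covered in all 3 lists; the next lowest reached 35.6% in the series-wide list, 27.7% in replicate 1 and 23.2% in replicate 2. The second longest uncovered stretch was chrU:4729365-4749714 (20350 bp), the third chrU:1110240-1130499 (20260 bp), the fourth chrU:2514027-2531715 (17689 bp) and the fifth chrU:5288389-5305816 (17428 bp). No release 5 sequence was used, so unsequenced bases within these stretches were not counted.

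Coverage changed strongly along U, and the libraries followed the same course. In 20 windows of 500 kb the mean covered share of the libraries ran from 40.8% ± 2.04 to 83.4% ± 1.03 (SD, n = 2 each), while the libraries differed within a window by an SD of at most 3.78 points. The covered shares of both libraries had a Pearson r of 0.99 and a Spearman rho of 0.99 over the 20 windows, as a description of windows on 1 sequence. Replicate 1 was higher than replicate 2 in 20 of 20 windows, and the series-wide list exceeded both in 20 of 20. The first window was highest in the library mean and in replicate 2 (82.6%), while window 12 was highest in the series-wide list (91.2%) and in replicate 1 (84.3%, against 84.1% in the first window). Window 10, from 4.5 to 5 Mb, was lowest in all 3 lists. Regions of 1 sequence are not replicates, so no test across windows was made.

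**Figure D2:**
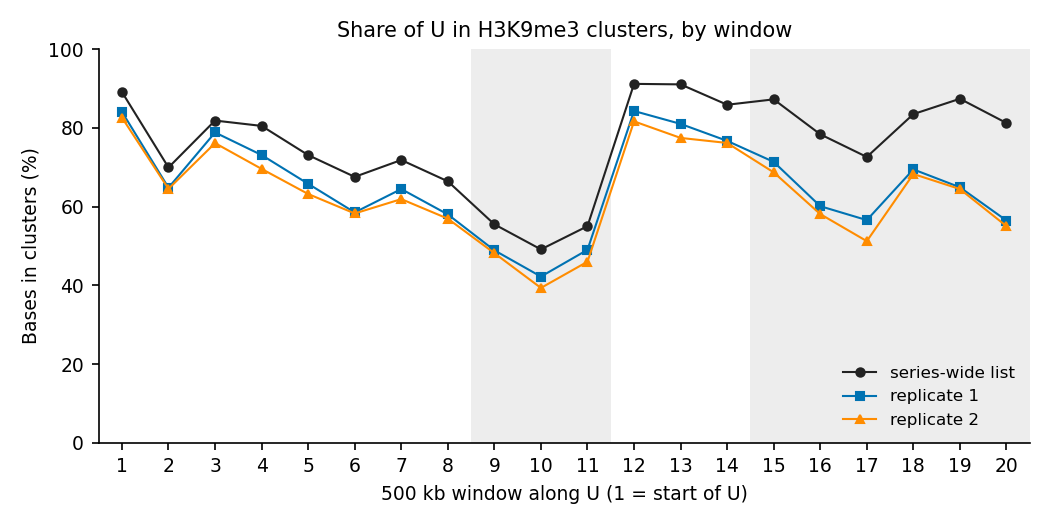
Percentage of bases in clusters (vertical axis) in 20 consecutive 500 kb windows of U (horizontal axis, the last window taking the remainder) for the series-wide list, replicate 1 and replicate 2. Shading marks windows 9 to 11 and 15 to 20. The library mean falls to 40.8% in window 10 and stands at 83.0% in window 12.

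Between neighbouring windows of 500 kb the largest change lay near 5.5 Mb. Window 12 was covered to 91.2% in the series-wide list, 84.3% in replicate 1 and 81.7% in replicate 2, against 55.0%, 49.0% and 46.0% in window 11. The difference of window 12 over window 11 was 35.5 points ± 0.272 (SD, n = 2), far beyond the spread between the libraries. In windows of 100 kb the library mean was 36.6% ± 3.60 from 5.3 to 5.4 Mb and reached 92.1% ± 0.943 from 5.6 to 5.7 Mb. At that finer scale the largest steps were those around the uncovered stretch at 0.7 to 0.8 Mb, with 81.6% ± 0.916 before it and 61.2% ± 1.41 after it. The pair of windows was chosen because of its values and is a description.

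From the windows, 4 stretches of U could be described, whose limits were set after the values were seen. The first, up to 4 Mb, was covered to 67.6% ± 1.28 (SD, n = 2) with 79.4 ± 5.13 clusters per Mb. The second, from 4 to 5.5 Mb, was covered to 45.6% ± 1.56 with 90.7 ± 1.89 clusters per Mb. The third, from 5.5 to 7 Mb, was covered to 79.6% ± 1.58 with 105 ± 5.66 clusters per Mb. The fourth, from 7 Mb to the end, was covered to 62.0% ± 1.53 with 167 ± 0.232 clusters per Mb.

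The stretch from 4 to 5.5 Mb stood out by wide gaps. Its 90.7 ± 1.89 library clusters per Mb were more than in the first 4 Mb and fewer than after 5.5 Mb. Its median gap was 6149 bp ± 249 over the libraries, against 2352 bp ± 214 before it, 1221 bp ± 396 in the next stretch and 1436 bp ± 113 in the last (SD, n = 2 each). It held 78 of the 156 stretches of at least 5 kb that no list covered, against 63 up to 4 Mb, 5 from 5.5 to 7 Mb and 10 after 7 Mb. Its clusters had a median length of 3890 bp ± 235, against 5300 bp ± 527 before it and 5263 bp ± 466 in the next stretch. In the last stretch the median was lower, at 3014 bp ± 62.6. Of its clusters, 33.3% series-wide, 23.9% in replicate 1 and 28.3% in replicate 2 were among the highest 10% of their list by score. These shares were above the 22.4%, 13.9% and 15.1% of the first 4 Mb. They were 26.4%, 25.0% and 24.3% from 5.5 to 7 Mb and 29.9%, 30.5% and 27.6% after 7 Mb. Against these later stretches the share from 4 to 5.5 Mb was lower in replicate 1 and higher in the other lists.

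After 7 Mb clusters were short and dense. Their median length was 3014 bp ± 62.6 over the libraries, against 5300 bp ± 527 in the first 4 Mb (SD, n = 2 each), a difference of -2286 bp ± 464. In the series-wide list it was -2294.5 bp. The longest library cluster after 7 Mb was 19721 bp in replicate 1 and 15360 bp in replicate 2, against 78126 and 78208 bp in the first 4 Mb. Clusters among the highest 10% by score made up 29.9% of the series-wide clusters after 7 Mb, 30.5% of those of replicate 1 and 27.6% of those of replicate 2, against 22.4%, 13.9% and 15.1% in the first 4 Mb. At the start of U the opposite held: windows 1 to 3 had between 50 and 62 library clusters per Mb, and median library lengths of 6611 to 11446 bp.

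**Figure D3:**
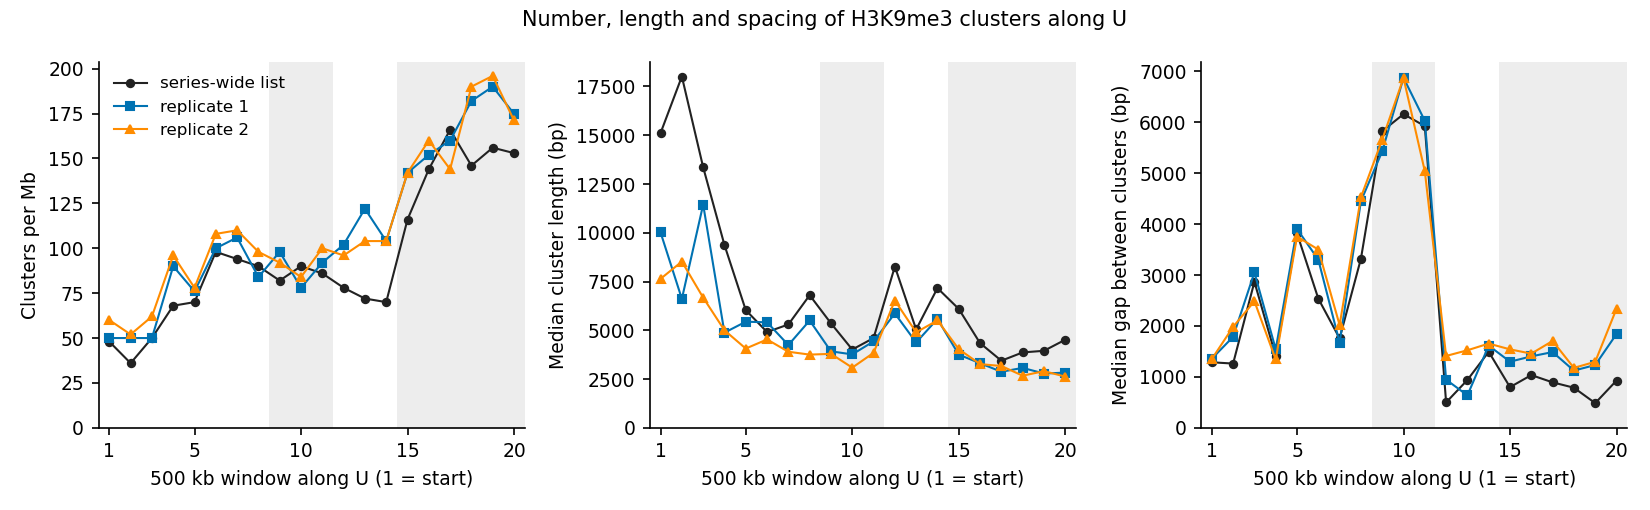
Clusters per Mb, median cluster length in bp and median gap between clusters in bp (vertical axes) in 20 windows of 500 kb along U (horizontal axes) for the series-wide list, replicate 1 and replicate 2. Shading marks windows 9 to 11, where median library gaps are 5040 to 6874 bp, and windows 15 to 20, where library clusters number 142 to 196 per Mb.

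Split at its midpoint, U was covered to 63.0% ± 1.29 in its first 5.02 Mb and to 65.8% ± 1.59 in the remainder, a difference of -2.76 points ± 0.297 (SD, n = 2). The sign was the same in both libraries. Its size depended on the list: it was -10.9 points in the series-wide list, -5.16 when the lower-scoring 50% of each list was dropped and -1.13 with clusters of at least 2 kb alone. The midpoint falls inside the little-covered stretch, so this split averages unlike parts.

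The libraries listed largely the same places on U. Of the replicate 1 clusters on U, 92.5% overlapped replicate 2 by at least 1 bp (1027 of 1110, exact 95% interval 90.8 to 94.0%), beside 85.0% over all sequences. Of the replicate 2 clusters on U, 95.6% overlapped replicate 1 (1082 of 1132, 94.2 to 96.7%), beside 89.8% over all sequences. On the 6 scaffolds these shares were 91.3% (88.6 to 93.6%) and 97.0% (95.3 to 98.3%), and the intervals overlapped those of U. The intervals cover counting error over the clusters of a list, so their overlap is no test of U against the scaffolds. Where so much is covered, an overlap of 1 bp is easily met. Counted in bases, the libraries agreed less on U than on the 6 scaffolds, as given below. Clusters on U found in 1 library alone numbered 83 in replicate 1 and 50 in replicate 2, and were short, with medians of 1785 and 1645 bp. Their median scores were 2.45 in replicate 1 and 2.56 in replicate 2, against 2.81 and 2.75 for the clusters found in both libraries. Of the lone clusters 20.5% and 22.0% were among the highest 10% of their list, against 24.6% and 23.7% of the others. All but 2 of these clusters, both of replicate 1, overlapped the series-wide list.

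Cluster ends on U were close but rarely identical. A single partner each way was found for 682 clusters, 61.4% of replicate 1 and 60.2% of replicate 2. Over their 1364 ends the libraries differed by a median of 140 bp (quartiles 41 and 403 bp). Of the ends 40.0% lay within 100 bp, 7.48% within 10 bp and 8.21% over 1 kb apart. On the 6 scaffolds the median difference was 124 bp over 622 ends, with 45.5% within 100 bp. A further 163 replicate 1 clusters on U overlapped more than 1 cluster of replicate 2, and 126 replicate 2 clusters more than 1 of replicate 1.

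Agreement of the libraries was lowest in the last part of U, after 7 Mb. The Jaccard index is the bases covered in both libraries over those covered in either. It was 0.857 over the whole of U, 0.933 on the 6 scaffolds and 0.890 on chromosome 4. Within U it was 0.902 up to 4 Mb, 0.862 from 4 to 5.5 Mb, 0.890 from 5.5 to 7 Mb and 0.774 after 7 Mb. In windows of 500 kb it lay at or above 0.858 in windows 1 to 14 and at or below 0.807 in windows 15 to 20. Library clusters were short after 7 Mb, as given above, and short clusters have more ends per covered base. The part of length in the lower agreement after 7 Mb was not tested.

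The series-wide list added most to the libraries in the same place. It exceeded the library mean by 7.49 points up to 4 Mb, 7.61 from 4 to 5.5 Mb, 9.83 from 5.5 to 7 Mb and 19.8 after 7 Mb. Bases in the series-wide list that neither library covered made up 4.15%, 4.43%, 5.34% and 12.2% of these stretches, and 18.5% of the last window. After 7 Mb the median gap was 790 bp in the series-wide list, 1357 bp in replicate 1 and 1516 bp in replicate 2. How the list was made from the replicates is not given in the sources used here.

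**Figure D4:**
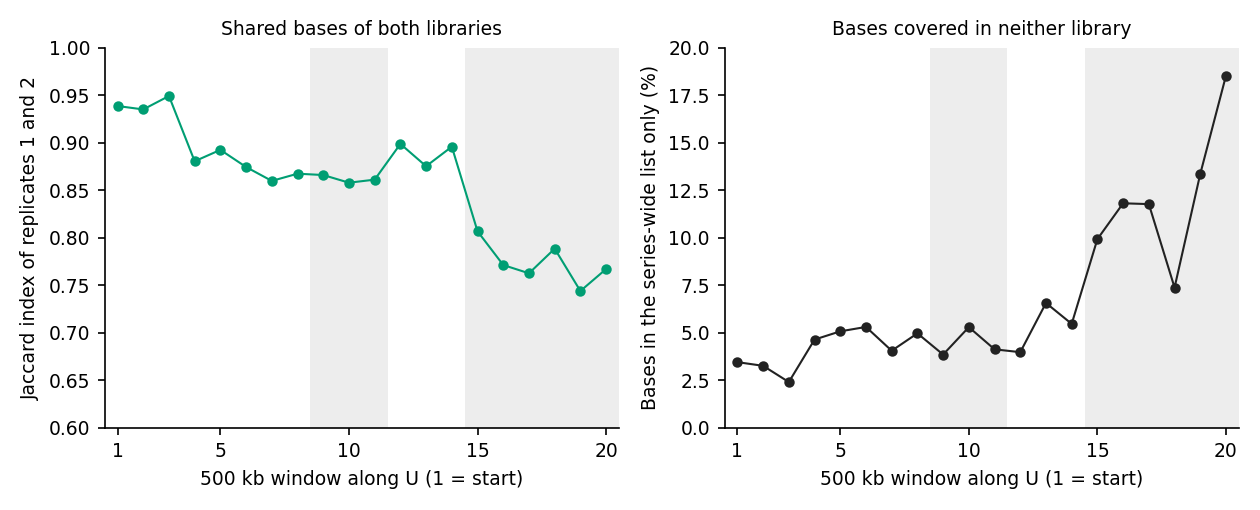
Jaccard index of the bases covered in replicates 1 and 2 (left, vertical axis starting at 0.6) and percentage of bases in the series-wide list that neither library covered (right), in 20 windows of 500 kb along U (horizontal axes). The index is 0.949 at most and 0.744 at least, and windows 15 to 20 hold its 6 lowest values.

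Gaps on U that the series-wide list closed were short, though most gaps under 1 kb were not wholly closed. No base that both libraries covered was missing from it. The libraries left 1022 stretches uncovered in common, and the series-wide list closed 181 of them completely. It closed 42.3% of the 376 stretches under 1 kb (159) and 5.07% of the 434 stretches of 1 to 5 kb (22). None of the 179 stretches of 5 to 10 kb and none of the 33 of at least 10 kb was closed, though it covered 14.8% and 10.8% of their bases. Counted over gaps of either library, 28.6% of the series-wide clusters on U (276 of 964) spanned at least 2 clusters of at least 1 library, with up to 9 in 1 case, and 151 spanned at least 2 of each.

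Of the 964 series-wide clusters on U, 760 were found in both libraries by at least 1 bp, which is 78.8% (exact 95% interval 76.1 to 81.4%), beside 61.1% over all sequences. On the 6 scaffolds this share was 76.2% (72.2 to 80.0%), and the intervals overlap, which again is no test. A further 56 were found in replicate 1 alone, 33 in replicate 2 alone and 115 in neither. The 115 were short, with a median of 1360 bp against 5859 bp for the 849 others, and made up 9.75% of the series-wide clusters up to 4 Mb, 7.75% from 4 to 5.5 Mb, 14.5% from 5.5 to 7 Mb and 13.8% after 7 Mb. Their median score was 2.35, against 2.66 for the others.

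U was set against the sequences most like it, the 6 heterochromatic scaffolds with 9.28 Mb in all. U was covered less widely than the 6 as a pool, by shorter clusters at a higher density, while single scaffolds differed from this. The covered share was 64.4% ± 1.44 on U and 72.1% ± 1.52 on the scaffolds, a difference of -7.69 points ± 0.0773 (SD, n = 2). In the series-wide list this difference shrank to -1.71 points. Clusters numbered 112 ± 1.55 per Mb on U and 59.1 ± 3.20 on the scaffolds, a difference of 52.4 ± 1.65. Their median length was 3719 bp ± 123 on U and 7451 bp ± 182 on the scaffolds, a difference of -3732 bp ± 58.7. Each of these differences exceeded the SD of the libraries by far and had the same sign in both. An exact paired permutation test over the 2 libraries gave a two-sided p of 0.5 for each, the smallest it can give. Limits between the scaffolds joined in U and unsequenced bases were not measured, and their part in these differences was not tested. The scaffolds were unlike among themselves. YHet was covered to 60.2% in replicate 1 and 56.7% in replicate 2, and XHet to 29.8% and 27.8%, both less than U. On 2LHet the shares were 66.8% and 64.0%, close to the 65.4% and 63.4% of U. The median length on XHet was 1929 and 1990.5 bp, over 7 and 6 clusters, which is shorter than on U. On YHet it was 4419 and 4051 bp, at 95.1 and 92.2 clusters per Mb, not far from U.

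Gaps between clusters did not follow this pattern. The median gap was 1746 bp ± 93.3 on U and 1631 bp ± 64.3 on the scaffolds (SD, n = 2 each). The difference of 115 bp ± 158 was within the spread between libraries, at 3.5 bp in replicate 1 and 226.5 bp in replicate 2. In the series-wide list its sign turned, at -60 bp. Uncovered stretches of at least 10 kb held 22.1% ± 0.203 of the uncovered bases of U and 56.5% ± 0.208 of those of the pooled scaffolds. On YHet alone they held 7.57% in replicate 1 and 22.7% in replicate 2, which is no more than about the share on U. Such stretches numbered 4.58 per Mb on U and 4.85 ± 0.457 on the scaffolds, a difference whose sign changed between the libraries, and 2.09 and 3.66 in the series-wide list. Clusters of at least 10 kb made up 12.6% ± 0.491 of those on U and 39.1% ± 2.50 of those on the scaffolds. Clusters among the highest 10% of the list by score made up 24.0% ± 0.522 on U and 6.76% ± 0.623 on the scaffolds, and 27.8% and 13.0% in the series-wide list.

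**Figure D5:**
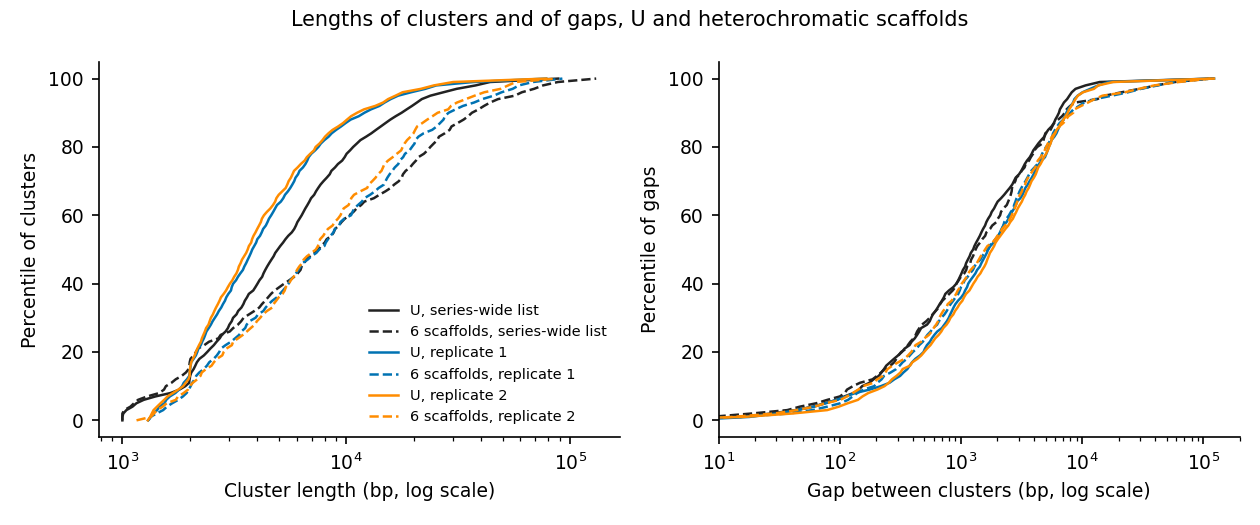
Percentiles (vertical axes) of cluster length in bp (left) and of the gap between neighbouring clusters in bp (right), both on log scales (gaps under 10 bp lie off the axis), for U (solid) and the 6 heterochromatic scaffolds (dashed) in each list. Length curves of U lie at shorter lengths than those of the scaffolds from the 26th percentile on, with mean library medians of 3719 and 7451 bp, while the gap curves run close together from the 25th to the 85th percentile.

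Chromosome 4, a small chromosome with heterochromatic character, was covered as widely as U in the libraries and in another pattern. The covered share was 64.4% ± 1.44 on U and 64.3% ± 0.481 on chromosome 4, and the difference of 0.0406 points ± 1.92 changed sign between the libraries (exact paired permutation p = 1). The series-wide shares were 76.0% and 72.2%. U held 112 ± 1.55 clusters per Mb and chromosome 4 held 73.6 ± 4.71. Uncovered stretches of at least 10 kb numbered 4.58 per Mb on U and 12.2 ± 0.523 on chromosome 4. The median length was 3719 bp ± 123 on U and 5382 bp ± 800 on chromosome 4 in the libraries, but 4947 and 3116 bp in the series-wide list, where the order turned. Uncovered stretches of at least 10 kb held 22.1% ± 0.203 of the uncovered bases of U and 62.1% ± 1.49 of those of chromosome 4.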

How the data were processed

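The submitters' processing notes name Bowtie 0.12.7 for alignment. Per the file headers, coordinates refer to release 5 of FlyBase. The authors deposited 1 list of enriched clusters for each of 2 ChIP libraries and 1 for the set of replicates, each cluster with a start, an end and a score whose scale is not stated. The sources used here give neither caller nor threshold nor read filters, and depth is unknown, so intervals on shares (exact Clopper-Pearson, 95%) cover counting error only. Other positions and counts were obtained with scripts (Python 3.11.15, with scipy 1.17.1 beside numpy 2.4.6). No cluster on U ran past its end. Those on other sequences that did were cut there. Windows of 500 kb (the last takes the remainder) and of 100 kb were used, and a cluster belongs to the window of its midpoint. Means ± SD are over the 2 libraries, which the labels do not describe as separate collections of embryos. SDs and p-values may thus measure technical spread. The rule for named regions takes the 5 longest and the 5 highest-scoring series-wide clusters on U, the 5 longest stretches that no list covers, and the highest and lowest window. The 4 stretches of U, the step near 5.5 Mb, the gap difference and the tied scores were chosen after seeing the data. The members and lists were chosen with earlier results of these data known. Interval functions were tested on simulated data. Alternatives were a score limit at the list's median, joining clusters under 1 kb apart, a minimum length of 2 kb, the series-wide list, each library alone, an overlap of 50% and other windows. Gene positions of release 6 were not mixed with these.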

Additional observations from a re-analysis of the deposited data

How the results depend on the processing

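No paired analysis was possible because the groups that share replicate numbers are ChIP and input, and the inputs were not analysed here. U and the other sequences were compared within each library. Of 97 alternatives over 19 results, 51 left the result within its spread or call (for counts, within 1.5 times), 44 moved it and 2 reversed it. Each of 2 libraries always lies within the SD of their mean, so leaving out a library could not move a result given as mean ± SD. Differences from the scaffolds counted as unchanged while their sign held. The covered share did so at -1.71 points series-wide, against -7.69 ± 0.0773 in the libraries. In the order score limit at the list's median, clusters under 1 kb joined, at least 2 kb alone, and series-wide list, the covered share of U was 58.2%, 66.1%, 62.0% and 76.0%, the median length 3957, 5728, 4178 and 4947 bp, the median score 2.91, 2.97, 2.83 and 2.64, the median gap 2496, 3454.5, 2380.5 and 1262 bp, and the first minus the second side of U -5.16, -4.23, -1.13 and -10.9 points. The number of clusters was 950.5, 726.5, 975 and 964 in that order. The number of uncovered stretches of at least 10 kb moved to 91.5 under the score limit and to 21 series-wide. Under the length limit it was 65.5, within the 1.5 times set for counts. With the score limit, joining and the length limit in turn, the Jaccard index was 0.809, 0.868 and 0.854. The replicate 1 clusters found in replicate 2 were then 88.8%, 94.7% and 94.3%, and 89.8% with an overlap of 50%. The replicate 2 clusters found in replicate 1 were 92.9% with the score limit and 93.6% with that overlap. Requiring 50% gave 74.0% for series-wide clusters that both libraries hold. With replicate 1 or 2 left out they were 82.3% or 84.6%, since a single library is then enough. The lowest and highest windows were 33.0% and 87.0% at 250 kb and 44.7% and 77.9% at 1 Mb. Leaving out a library gave 63.4 to 65.4% for the covered share, 3632 to 3806.5 bp for the median length, 1680 to 1812 bp for the median gap and -2.97 to -2.55 points for the sides of U. The median gap of U over the scaffolds, added after the data were seen, reversed to -321 bp under the score limit and to -60 bp series-wide. The differences from the scaffolds in covered share, length and density kept their sign, at p = 0.5 (exact permutation), which 2 libraries cannot pass. A score or length limit can only lower covered shares and joining can only raise them. For the remaining shifts the cause was not tested.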
